A study of Rattus norvegicus with 24 samples.

Results

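Kidney RNA of stroke-prone spontaneously hypertensive rats (SHR-SP) was examined for the genes that build and load the molecules of the major histocompatibility complex (MHC, named RT1 in the rat) and for genes that respond to interferon. The members were all probe sets of the array whose gene symbol in the platform annotation began with RT1- or was one of 32 listed symbols. The rule goes by name, but the list was drawn up with earlier results of these data known, which bears on the share of members called. They numbered 62 of the 15923 probe sets on the array. Of the 32 listed symbols 27 were found, and Isg15, Ifit2, Ifi47, Igtp and Xaf1 headed no probe set alone. There were 58 probe sets with 1 symbol, for 43 symbols, and 4 that carried several RT1 symbols, whose signal is not credited to any 1 gene. By role the members fell into 24 probe sets for class I heavy chains, 6 for the partners of class I (B2m, Tap1, Tap2 and Tapbp), 11 for class II and its helpers Cd74 and Ciita, 7 for interferon signalling (Ifngr1, Irf1, Irf7, Irf8, Irf9 and Stat2) and 14 for interferon-induced genes.

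SHR-SP is an inbred line with genetic hypertension, and every group was of this strain and male, with no normotensive strain among the groups described. From 11 weeks of age, rats received either powdered chow with plain water, called the normal diet, or chow with 24.5% fat together with drinking water holding 1% NaCl, called the high salt and fat diet. Kidneys were taken after 2 or 8 weeks on the diet, which gave 4 groups of 6 animals (normal diet at 2 weeks, high salt and fat at 2 weeks, normal diet at 8 weeks, high salt and fat at 8 weeks), with 1 array per animal. Salt and fat were given together and cannot be told apart, and animals at 8 weeks were also older than those at 2 weeks. Each measurement is a MAS5 signal, a linear brightness in arbitrary units scaled to a common mean on every array. Changes are differences of log2(signal + 7.2) with their standard error, a scale that understates the change of dim probe sets, and levels of different probe sets were not compared.

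MHC class I molecules sit on nearly all nucleated cells and show peptides from inside the cell to CD8 T cells. A polymorphic heavy chain pairs with the light chain B2m, the transporter of Tap1 and Tap2 carries peptides into the endoplasmic reticulum, and tapasin (Tapbp) helps to load them. Class II molecules are pairs of an alpha and a beta chain that show peptides from endosomes to CD4 T cells. They are made chiefly by dendritic cells, macrophages and B cells, are chaperoned by the invariant chain Cd74, and are switched on by the co-activator Ciita. Interferons of type I and type II signal through STAT proteins and interferon regulatory factors and raise both the antigen presentation genes and a set of antiviral genes. In the kidney, tubular epithelium can also show class II when it is inflamed.

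The arrays were alike in scale, with median signals of 68.7 to 78.7 and correlations of log2 signals between arrays of a group of 0.958 to 0.981. Of the markers of the kidney, 8 of 8 proximal tubule genes and 6 of 6 genes of other nephron segments passed the filter on dim probe sets. The filter asked for a signal above the 40th percentile of the array, 44.5 to 54.5, in at least 6 of 24 arrays. As 10208 of the 15923 probe sets passed it, this is a weak check of the kidney label. Normal-diet arrays 1 and 2 at 8 weeks had a higher 1st percentile of signal, up to 3.0, where the groups other than normal diet at 8 weeks reached at most 1.1. Without this pair the member counts given in the next paragraphs were 3 higher and 2 lower for diet at 2 weeks, 9 and 0 for diet at 8 weeks, 4 and 0 for the difference between them, and 10 and 1 between the times on high salt and fat. Of the 62 members 44 passed the filter, for 36 symbols, and were tested. The other 18 had group medians of 2.05 to 46.5 and include both probe sets of Tap1 and Mx2, as well as Gbp2 and Ifit3.

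The promoters of 6 members are shown first because each of these genes was called with diet at 2 or 8 weeks and together they show 2 known kinds of control element, the X and Y boxes of class II promoters, where a complex that recruits Ciita binds, and the interferon-stimulated response element (ISRE), where STAT and IRF proteins bind. The sequences are the 250 bases before the annotated start of each gene in RefSeq's annotation of the rat assembly GRCr8, a Brown Norway genome, so SHR-SP may differ from them. The capitals mark matches to the X box (TAG, any base, AAC, any base, GATG), the Y box (CTGATTGG), the ISRE (GAAA, 2 bases of any kind, GAAA) or the GAS, the site of STAT dimers (TTC, 3 bases of any kind, GAA), searched on both strands. RT1-Da lies at chr20:4515165-4515414 on the plus strand, RT1-Db1 at chr20:4560163-4560412 on the minus strand, B2m at chr3:129549080-129549329 on the plus strand, Tap2 at chr20:4652297-4652546 on the minus strand, Bst2 at chr16:18254968-18255217 on the minus strand and Ifitm3 at chr1:205541759-205542008 on the minus strand.

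RT1-Da: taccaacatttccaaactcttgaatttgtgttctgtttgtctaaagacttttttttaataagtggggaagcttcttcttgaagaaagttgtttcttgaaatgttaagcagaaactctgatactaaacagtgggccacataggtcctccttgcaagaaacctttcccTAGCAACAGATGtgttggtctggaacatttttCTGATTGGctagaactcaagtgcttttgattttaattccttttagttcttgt
RT1-Db1: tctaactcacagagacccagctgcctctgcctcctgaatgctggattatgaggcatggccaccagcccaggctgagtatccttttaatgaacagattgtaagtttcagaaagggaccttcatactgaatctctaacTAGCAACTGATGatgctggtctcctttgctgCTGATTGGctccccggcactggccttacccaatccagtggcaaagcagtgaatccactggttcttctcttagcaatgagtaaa
B2m: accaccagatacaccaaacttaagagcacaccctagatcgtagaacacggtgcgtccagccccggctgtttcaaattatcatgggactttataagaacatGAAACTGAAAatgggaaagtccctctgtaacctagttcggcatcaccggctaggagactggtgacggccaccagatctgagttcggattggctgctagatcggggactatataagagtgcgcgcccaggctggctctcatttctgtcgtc
Tap2: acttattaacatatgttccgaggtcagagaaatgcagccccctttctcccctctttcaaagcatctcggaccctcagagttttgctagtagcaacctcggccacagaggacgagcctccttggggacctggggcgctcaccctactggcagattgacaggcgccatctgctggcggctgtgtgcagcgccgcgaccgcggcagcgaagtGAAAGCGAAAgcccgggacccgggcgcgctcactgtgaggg
Bst2: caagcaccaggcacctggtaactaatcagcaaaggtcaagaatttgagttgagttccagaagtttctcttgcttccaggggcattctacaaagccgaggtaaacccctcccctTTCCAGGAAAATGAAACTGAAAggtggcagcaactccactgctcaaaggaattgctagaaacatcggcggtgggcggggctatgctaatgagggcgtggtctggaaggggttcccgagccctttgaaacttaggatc
Ifitm3: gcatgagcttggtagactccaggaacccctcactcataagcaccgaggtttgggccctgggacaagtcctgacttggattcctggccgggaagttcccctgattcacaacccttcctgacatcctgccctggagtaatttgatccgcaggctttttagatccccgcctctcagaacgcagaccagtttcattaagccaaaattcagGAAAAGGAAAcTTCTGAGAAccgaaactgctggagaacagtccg

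RT1-Da and RT1-Db1, the class II alpha and beta chain genes of the D locus, each held an X box followed by a Y box. In RT1-Da they began 84 and 52 bases before the start, and in RT1-Db1 114 and 83 bases before it. B2m held an ISRE 150 bases before its start, and Tap2 held an ISRE 41 bases before its start. In Bst2 a pair of ISRE matches at 131 and 125 bases overlapped each other, and the first overlapped a GAS match at 137 bases, so that they form 1 run of capitals. In Ifitm3 an ISRE stood at 44 bases and a GAS match at 33. Promoters in the RefSeq table were at hand for 37 of the 43 member symbols. Those of Ciita, Ifitm1, Mx2, RT1-A, RT1-DMb and Usp18 were not at hand. Over windows of 300 bases (250 before to 50 after the start), the ISRE letters were in 15 of 37 member promoters (40.5%) and in 3.92% of all 33465 promoters. They were in 4 of 4 promoters of class I partners, 8 of 10 of interferon-induced genes, 2 of 11 of heavy chains, 1 of 6 of signalling genes and 0 of 6 of class II. The Y box letters were in 10 of 37 (27%) against 3.5% of all, 4 of them among the 6 class II promoters (RT1-Da, RT1-Db1, RT1-Ba and RT1-Bb) and 5 among the 11 heavy chain promoters. The X box letters were in 2 of 37 (5.41%) against 0.0687% of all, and the GAS letters, which read the same on both strands, in 7 of 37 (18.9%) against 8.87%. The letters were chosen with these sequences in view, and a match describes the letters in this window, not a site that is bound in these kidneys.

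**Figure D1:**
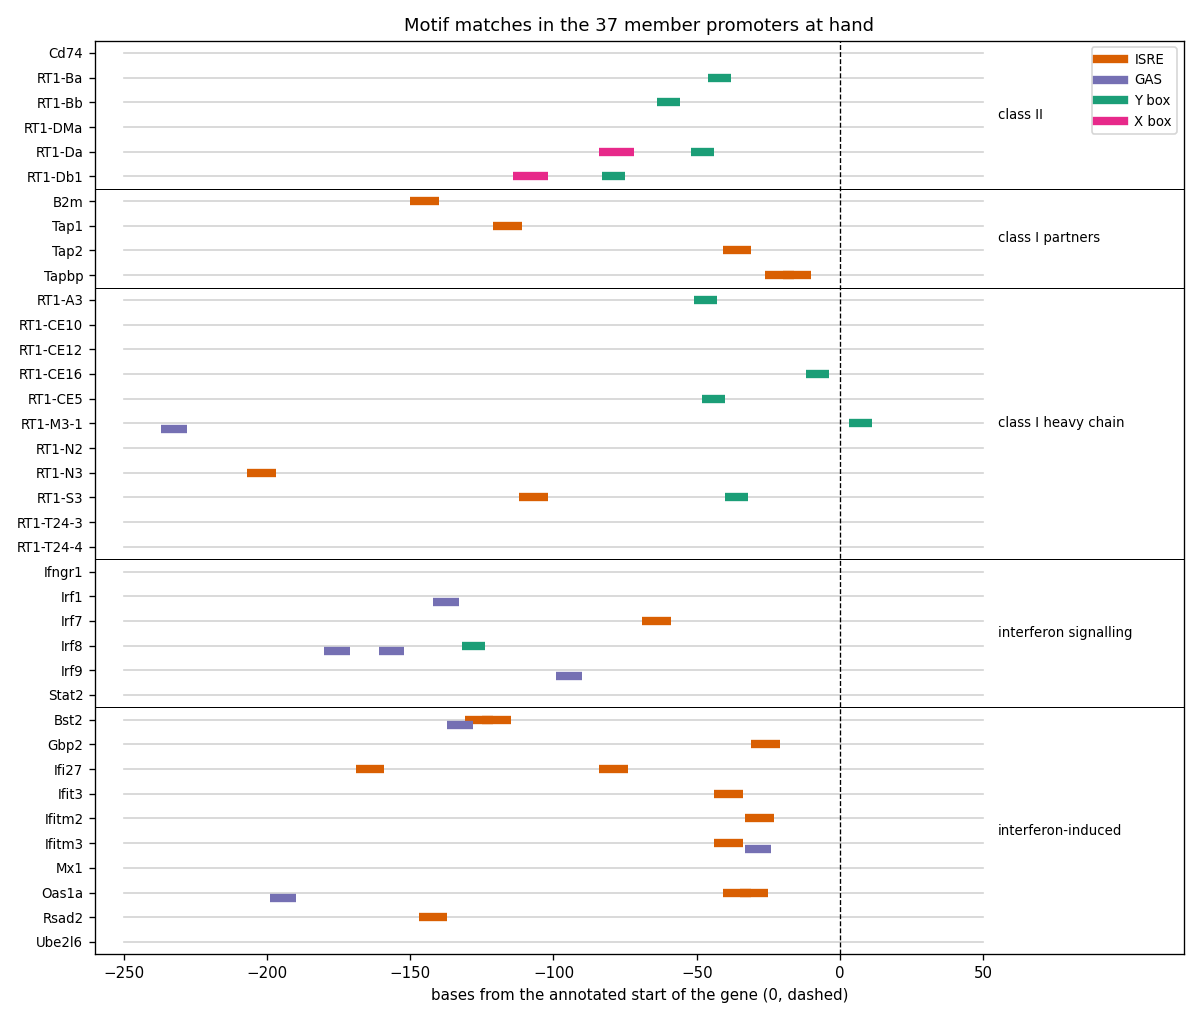
Position of motif matches in the promoters of 37 members, grouped by family, in bases from the annotated start of the gene (0, dashed line); each coloured bar is 1 match and overlapping matches merge. ISRE matches (orange) are seen in 4 of 4 class I partners and 8 of 10 interferon-induced genes, and X boxes (pink) in RT1-Da and RT1-Db1 of class II.

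With diet at 2 weeks, members moved in both directions. These are whole kidney signals, in which fewer cells of a type and less RNA per cell cannot be told apart. Of the 44 tested probe sets 3 rose and 3 fell at an adjusted p under 0.05 in limma, 13.6% of them, where 8.74% of all 10208 tested probe sets were called (4.55% higher and 4.19% lower). The heavy chains RT1-T24-4 and RT1-CE16 and the antiviral membrane protein Ifitm1 rose. The class II chain RT1-Da fell, as did 1 of 2 probe sets of the class II chain RT1-Ba and 1 of 2 probe sets of B2m. The median change of the members was -0.05, beside 0.02 over all tested probe sets. The groups did not overlap for 2 members that were higher and 1 that was lower, beside 2.67% and 2.17% of all tested probe sets. After 8 weeks on the diets, 9 members rose and 0 fell, 20.5% of the 44, where 9.14% of all tested probe sets were called (5.63% higher and 3.51% lower). These were RT1-Da, RT1-Db1, Tap2, a probe set of B2m, RT1-M3-1, Bst2, Ifitm1, Ifitm3 and Ifi27. The median change was then 0.20, beside 0.00 over all tested probe sets, and 37 of 44 changes lay above 0, beside 49.7% of all. The groups did not overlap for 4 members, all higher, beside 2.21% of all tested probe sets.

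The diet effect at 8 weeks minus that at 2 weeks was called above 0 for 5 members and below 0 for none. They were RT1-Da, Tap2, Bst2 and 1 of 2 probe sets each of RT1-Ba and B2m. These made 11.4% of the 44, where 0.382% of all tested probe sets were called (0.343% higher). Of the 44 members, 17 had an unadjusted p under 0.05, beside 11.6% of all. The sign of the change was negative at 2 weeks and positive at 8 weeks for 22 of 44 members and for 15.7% of all tested probe sets. It was positive at both times for 15 members and 34.1% of all. By family the reversed sign was seen in 6 of 9 class II probe sets, 3 of 4 of class I partners, 6 of 14 of heavy chains, 4 of 7 of signalling and 3 of 10 of interferon-induced genes. The interaction count fell from 5 to 3 without any 1 of 10 of the 24 arrays (normal diet at 2 weeks arrays 1, 2 and 4, high salt and fat at 2 weeks arrays 1 and 3, normal diet at 8 weeks arrays 2 and 6, high salt and fat at 8 weeks arrays 3, 5 and 6). The number of arrays, 6 per group, limits the precision.

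**Figure D2:**
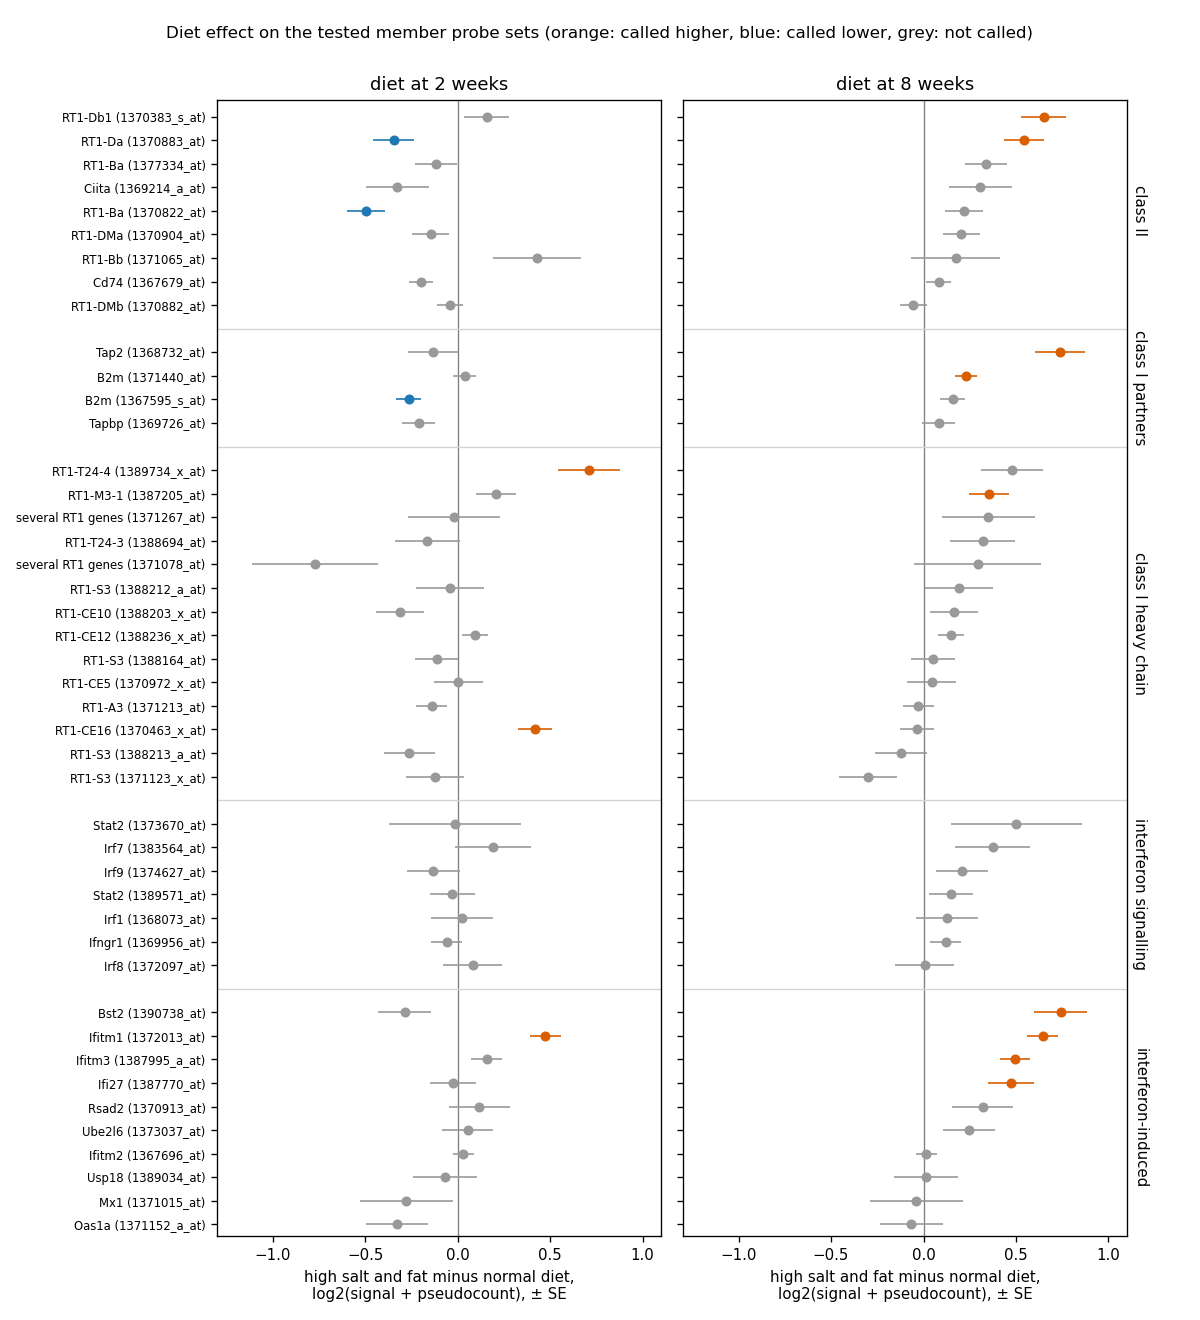
Diet effect on each of the 44 tested member probe sets at 2 weeks (left) and 8 weeks (right), as high salt and fat minus normal diet on the log2(signal + pseudocount) scale; points are limma estimates from 6 arrays per group and lines are ± 1 standard error. At 2 weeks 3 are called higher (orange) and 3 lower (blue), and at 8 weeks 9 are called higher and 0 lower; grey points were not called.

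Among class II genes RT1-Da and RT1-Ba are the alpha chains of the D and B molecules. RT1-Da and 1 of 2 probe sets of RT1-Ba fell with diet at 2 weeks, and RT1-Da and RT1-Db1 rose at 8 weeks. The signal of RT1-Da was 1167 to 1405 (median 1279) on the 2-week normal diet and 769 to 1199 (median 1063) on the 2-week high salt and fat diet. At 8 weeks it was 1009 to 1242 (median 1135) on the normal diet and 1231 to 1944 (median 1738) on high salt and fat. The groups overlapped at both times, yet all 6 high salt and fat arrays lay below the normal-diet median at 2 weeks and all 6 lay above it at 8 weeks. RT1-Da fell by 0.35 ± 0.11 at 2 weeks (adjusted p = 0.0472) and rose by 0.54 ± 0.11 (adjusted p = 0.00206) at 8 weeks. The difference between the effects was 0.89 ± 0.16 (adjusted p = 0.00871). The call at 2 weeks was near the threshold. It was lost without any 1 of the 6 normal-diet arrays or without high salt and fat array 3, 5 or 6 (changes of -0.37 to -0.27, adjusted p 0.0527 to 0.124). Quantile normalization, arrays centred on their medians, no filter, no intensity trend or the replicate number as a block also ended the call. So did a term for the fat index, the ratio of 3' to 5' GAPDH control signal or the spiked controls. Leaving out normal-diet arrays 1 and 2 at 8 weeks together ended it too. Over these settings the changes were -0.35 to -0.26 (adjusted p 0.0546 to 0.38).

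RT1-Ba has a pair of tested probe sets, of which 1 was called with diet at 2 weeks. On the dimmer probe set the 2-week signal was 169.8 to 199 (median 179) on the normal diet and 106 to 153 (median 129.6) on high salt and fat, with no overlap, and the change was -0.50 ± 0.10 (adjusted p = 0.00238). Its signal at 8 weeks was 145 to 169 (median 158) on the normal diet and 130.0 to 239 (median 186) on high salt and fat, so the groups overlapped, and the change was 0.22 ± 0.10 (adjusted p = 0.183). The difference between the effects was 0.71 ± 0.14 (adjusted p = 0.017). Without high salt and fat array 2, the lowest of its group, the change at 8 weeks was 0.31 (adjusted p = 0.0252). On the brighter probe set the signal was 364 to 439 (median 383) and 286 to 422 (median 366) at 2 weeks and 279 to 476 (median 398) and 392 to 597 (median 508) at 8 weeks, for the normal and the high salt and fat diet. Neither diet change of this probe set was called (-0.12 ± 0.11, adjusted p = 0.588 at 2 weeks and 0.34 ± 0.11, adjusted p = 0.0611 at 8 weeks), and the interaction was 0.45 ± 0.16 (adjusted p = 0.246).

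RT1-Db1, the beta chain that pairs with RT1-Da, gave 318 to 468 (median 429.6) on the normal diet and 337 to 533 (median 469.6) on high salt and fat at 2 weeks, which overlapped, and its change was 0.16 ± 0.12 (adjusted p = 0.478). By 8 weeks it gave 328 to 489.5 (median 421) on the normal diet and 527 to 875 (median 609) on high salt and fat, with no array of one group inside the range of the other. It rose by 0.65 ± 0.12 (adjusted p = 0.000936). The test of the difference between the times gave 0.49 ± 0.17 (adjusted p = 0.235), so the effects of RT1-Db1 at 2 and 8 weeks were not shown to differ.

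The other class II members were called in neither diet comparison. Cd74, the invariant chain, read 2778 to 3527 (median 3039) and 2492 to 2902 (median 2619.6) on the normal and the high salt and fat diet at 2 weeks, and 2819.6 to 3311 (median 2983) and 2844 to 3579.8 (median 3188) at 8 weeks. The groups overlapped at both times. Its diet changes of -0.20 ± 0.07 (adjusted p = 0.0623) at 2 weeks and 0.08 ± 0.07 (adjusted p = 0.488) at 8 weeks were not called. The first was called without normal-diet array 5 (-0.23, adjusted p = 0.0407) or high salt and fat array 6 (-0.22, adjusted p = 0.0456). Ciita, the class II co-activator, was dim, with medians of 90.7 and 70.5 at 2 weeks and 72.2 and 103 at 8 weeks. Its changes of -0.33 ± 0.17 (adjusted p = 0.252) and 0.31 ± 0.17 (adjusted p = 0.283) were not called. The peptide exchange chains RT1-DMa and RT1-DMb had changes of -0.15 and -0.04 at 2 weeks and 0.21 and -0.05 at 8 weeks, none called, and RT1-Bb, the beta chain of the B molecule, had 0.43 and 0.17, not called either. In all, 2 of 9 class II probe sets fell at 2 weeks (median change -0.15) and 2 of 9 rose at 8 weeks (median 0.22). Of all tested probe sets 4.19% were called lower at 2 weeks and 5.63% higher at 8 weeks.

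**Figure D3:**
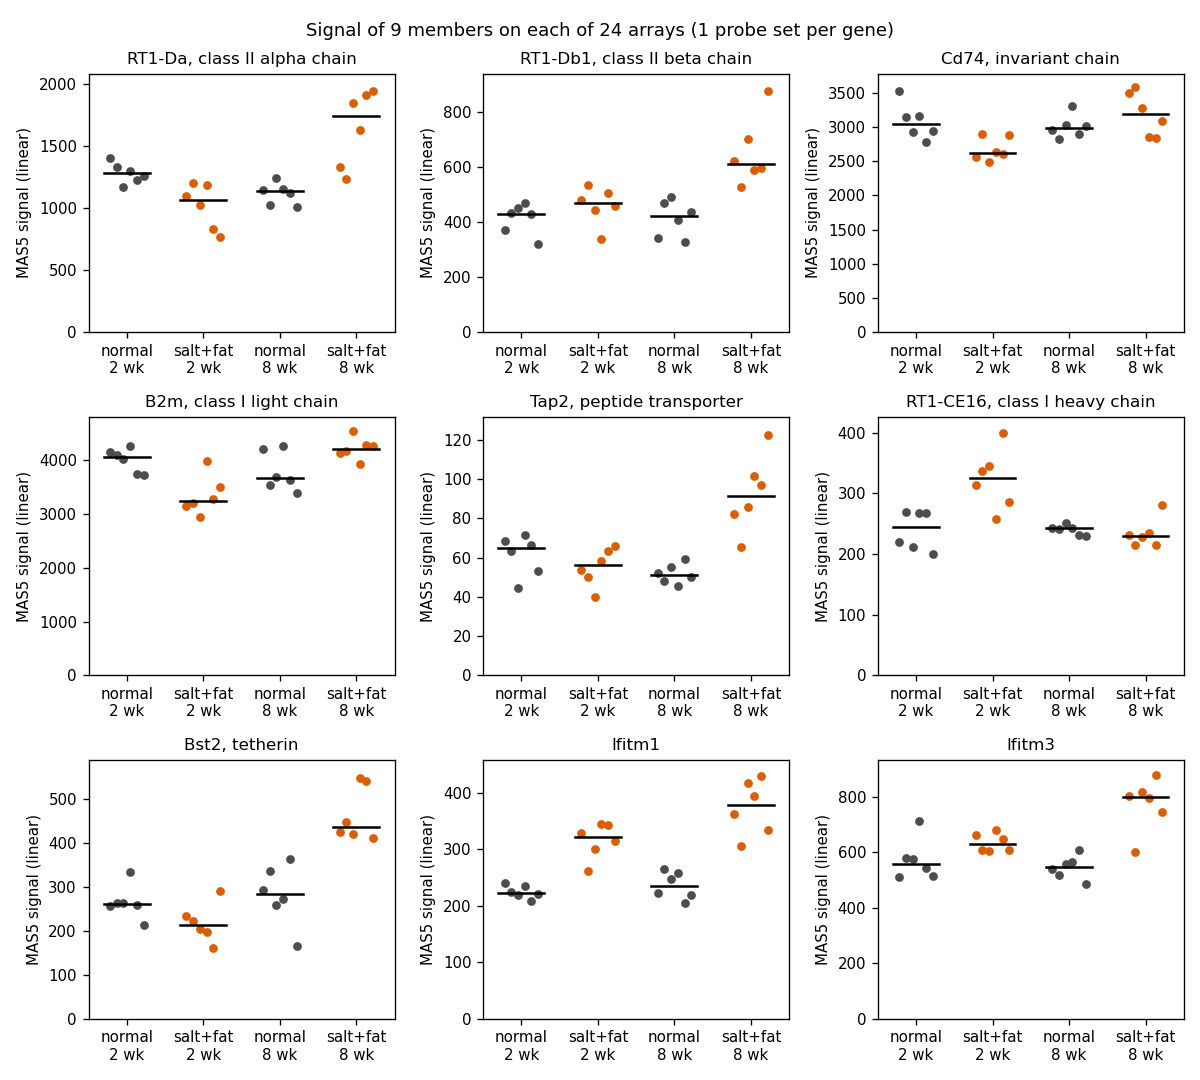
MAS5 signal (linear, arbitrary units, axes from 0) of 9 members on each of the 24 arrays, 1 panel per gene and 6 arrays per group; grey points are normal diet, orange points are high salt and fat, and black lines are group medians. At 8 weeks the high salt and fat arrays of RT1-Db1, Tap2, Bst2 and Ifitm1 all lie above those of the normal diet, and the RT1-CE16 median on high salt and fat is 324 against 244 at 2 weeks and 230.1 against 242 at 8 weeks.

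Of the genes that serve class I, Tap2, a chain of the peptide transporter, rose at 8 weeks. Its signal was 44.5 to 71.3 (median 64.8) on the normal diet and 39.8 to 65.7 (median 56.0) on high salt and fat at 2 weeks, which overlapped, with a change of -0.13 ± 0.14 (adjusted p = 0.602). After 8 weeks it was 45.5 to 59.4 (median 51.0) and 65.2 to 122 (median 91.5), with no overlap, and Tap2 rose by 0.74 ± 0.14 (adjusted p = 0.000758). The effects at the 2 times differed by 0.87 ± 0.19 (adjusted p = 0.033). That call was lost without any 1 of 13 of the 24 arrays (normal diet at 2 weeks arrays 1, 2, 4 and 5; high salt and fat at 2 weeks arrays 1 and 3; normal diet at 8 weeks arrays 2, 4 and 6; high salt and fat at 8 weeks arrays 3, 4, 5 and 6), with differences of 0.79 to 0.89 and adjusted p of 0.0504 to 0.0732. Tap1, the other arm of the transporter, was below the filter on both probe sets and was not tested. On 1 of them it read 2.5 to 43.7 (median 13.3) and 6.2 to 25.7 (median 19.4) at 2 weeks and 8.2 to 24.7 (median 14.0) and 7.9 to 34.3 (median 24.7) at 8 weeks, for the normal and the high salt and fat diet. Tapbp had changes of -0.21 ± 0.09 (adjusted p = 0.149) at 2 weeks and 0.08 ± 0.09 (adjusted p = 0.626) at 8 weeks, neither called.

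B2m, the shared light chain of class I, was measured by a pair of probe sets, 1 called lower at 2 weeks and the other higher at 8 weeks. The difference between the probe sets was not tested. The brighter read 3728 to 4268 (median 4056) on the normal diet and 2948 to 3982 (median 3243) on high salt and fat at 2 weeks. The groups overlapped, all 6 high salt and fat arrays lay below the normal-diet median, and B2m fell by 0.26 ± 0.07 (adjusted p = 0.0144). With quantile normalization this change was -0.04 (adjusted p = 0.749), and with the fat index as a covariate -0.14 (adjusted p = 0.415). At 8 weeks it read 3392 to 4262 (median 3668) and 3932 to 4544 (median 4218), which overlapped, with a change of 0.16 ± 0.07 (adjusted p = 0.146). The difference between the effects was 0.42 ± 0.10 (adjusted p = 0.0429), a call lost without any 1 of 16 of the 24 arrays (normal diet at 2 weeks arrays 1 to 4; high salt and fat at 2 weeks arrays 1, 2, 3 and 5; normal diet at 8 weeks arrays 2, 3, 5 and 6; high salt and fat at 8 weeks arrays 1, 3, 5 and 6), with differences of 0.39 to 0.43 and adjusted p of 0.0504 to 0.0983; quantile normalization gave 0.17 (adjusted p = 0.506). The dimmer probe set read 755 to 851 (median 835) and 771 to 900.5 (median 835) at 2 weeks, with a change of 0.04 ± 0.06 (adjusted p = 0.767). By 8 weeks it read 804 to 956 (median 824) and 882 to 1125 (median 992), which overlapped, and rose by 0.23 ± 0.06 (adjusted p = 0.0165). In all, 1 of 4 probe sets of class I partners fell at 2 weeks and 2 of 4 rose at 8 weeks (median changes -0.17 and 0.19). Of all tested probe sets 4.19% were called lower at 2 weeks and 5.63% higher at 8 weeks.

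Of the 14 tested probe sets of class I heavy chains 2 were called at 2 weeks (14.3%), where 8.74% of all tested probe sets were. At 8 weeks 1 was called (7.14%, beside 9.14% of all). RT1-CE16, of the class I C/E region, gave 199 to 269.5 (median 244) on the normal diet and 258 to 399.6 (median 324) on high salt and fat at 2 weeks. The groups overlapped and all 6 high salt and fat arrays lay above the normal-diet median, and RT1-CE16 rose by 0.42 ± 0.09 (adjusted p = 0.00466). At 8 weeks the signal was 229.6 to 251 (median 242) and 214 to 281 (median 230.1), which overlapped, with a change of -0.04 ± 0.09 (adjusted p = 0.859). The interaction of -0.45 ± 0.13 (adjusted p = 0.148) was not called. RT1-T24-4, a nonclassical gene of the T24 group, was dim on the normal diet, at 30.0 to 62.4 (median 49.6) at 2 weeks, against 74.2 to 94.6 (median 81.8) on high salt and fat. The groups did not overlap and it rose by 0.71 ± 0.17 (adjusted p = 0.00793). After 8 weeks it read 33.2 to 71.3 (median 52.8) and 55.1 to 106 (median 73.5), which overlapped, and the change was 0.48 ± 0.17 (adjusted p = 0.0709). That change was called without normal-diet array 1 (0.56, adjusted p = 0.0452), without high salt and fat array 6 (0.56, adjusted p = 0.0354) and without normal-diet arrays 1 and 2 together (0.66, adjusted p = 0.0245).

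RT1-M3-1, a nonclassical heavy chain gene of the M region, gave 91.4 to 110.5 (median 102) and 86.1 to 158 (median 118) at 2 weeks, with a change of 0.21 ± 0.11 (adjusted p = 0.25). At 8 weeks it gave 94.8 to 118 (median 111) on the normal diet and 115 to 165 (median 144) on high salt and fat, which overlapped, and rose by 0.36 ± 0.11 (adjusted p = 0.0362). This call was lost when array 1, 2 or 3 of the normal diet, or array 3, 4, 5 or 6 of the other diet, was left out (0.31 to 0.36, adjusted p 0.0525 to 0.0994), and without normal-diet arrays 1 and 2 together it was 0.29 (adjusted p = 0.172). The other 11 tested heavy chain probe sets had no call in a diet comparison. Those with 1 symbol (RT1-A3, RT1-CE5, RT1-CE10, RT1-CE12, RT1-T24-3 and 4 probe sets of RT1-S3) ranged from -0.31 (RT1-CE10) to 0.09 (RT1-CE12) at 2 weeks and from -0.30 (RT1-S3) to 0.32 (RT1-T24-3) at 8 weeks. The 4 probe sets of RT1-S3 had changes of -0.26 to -0.04 at 2 weeks and -0.30 to 0.19 at 8 weeks. A pair that carries several RT1 symbols had -0.77 and -0.02 at 2 weeks and 0.29 and 0.35 at 8 weeks. Of 14 heavy chain probe sets 2 rose at 2 weeks (median of all 14 -0.08) and 1 rose at 8 weeks (median 0.16). Heavy chain genes are close copies of one another and vary between strains, and the probe sets of RT1-CE16 and RT1-T24-4 are of the kind (x_at) that can read more than 1 gene, so these signals may hold RNA of related genes.

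No gene of interferon signalling was called in either diet comparison, where 8.74% and 9.14% of all tested probe sets were at 2 and 8 weeks. The median standard error of these probe sets was 0.16, beside 0.11 over all tested probe sets, so their changes were estimated less precisely. The 7 tested probe sets had median changes of -0.02 at 2 weeks and 0.15 at 8 weeks, and 0 of 7 had an unadjusted p under 0.05 at either time, where 22.8% and 23.7% of all tested probe sets did; 7 of 7 changes at 8 weeks lay above 0. Irf1, a factor of the interferon gamma response, read 60.8 to 114 (median 99.1) and 62.2 to 140.2 (median 95.4) at 2 weeks and 82.7 to 132 (median 105) and 76.5 to 151 (median 115) at 8 weeks on the normal and the high salt and fat diet. These groups overlapped, and the changes were 0.02 ± 0.17 (adjusted p = 0.954) and 0.13 ± 0.17 (adjusted p = 0.694). Irf7, the factor that amplifies type I interferon, read 106 to 302 (median 129.6) and 138 to 228 (median 166) at 2 weeks and 80.6 to 183 (median 109) and 121 to 202 (median 152) at 8 weeks. Its groups overlapped too, with changes of 0.19 ± 0.20 (adjusted p = 0.622) and 0.37 ± 0.20 (adjusted p = 0.273). The brighter probe set of Stat2, a subunit of the factor that binds the ISRE, read 109.6 to 176 (median 143) and 101 to 191 (median 135) at 2 weeks and 132 to 169 (median 143) and 134 to 183 (median 165) at 8 weeks, again with overlap. Its changes were -0.03 ± 0.12 (adjusted p = 0.917) and 0.15 ± 0.12 (adjusted p = 0.487), and those of the dimmer probe set were -0.02 ± 0.36 and 0.50 ± 0.36. Irf8, Irf9 and Ifngr1, the ligand-binding chain of the interferon gamma receptor, had changes of 0.08, -0.13 and -0.06 at 2 weeks and 0.01, 0.21 and 0.12 at 8 weeks.

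Among interferon-induced genes 4 of 10 tested probe sets rose at 8 weeks (median of the 10 0.28), where 5.63% of all tested probe sets were called higher. At 2 weeks 1 of 10 rose (median 0.00), where 4.55% of all were called higher. Ifitm1, a membrane protein that blocks virus entry, gave 208 to 240.2 (median 222) on the normal diet and 261 to 344 (median 322) on high salt and fat at 2 weeks, with no overlap, and rose by 0.47 ± 0.08 (adjusted p = 0.000707). By 8 weeks it gave 205 to 265 (median 235) and 305 to 429 (median 378), again with no overlap, and rose by 0.64 ± 0.08 (adjusted p = 1.19e-05). The difference between the times was 0.17 ± 0.12 (adjusted p = 0.633), so the effects were not shown to differ. Ifitm3, its close relative, gave 509 to 712 (median 559.8) and 605 to 679.5 (median 629.5) at 2 weeks, with a change of 0.16 ± 0.08 (adjusted p = 0.256). After 8 weeks it gave 485 to 607 (median 549) and 602 to 878 (median 800.5). These ranges touched through 1 array of high salt and fat at the lower end, and Ifitm3 rose by 0.49 ± 0.08 (adjusted p = 0.000231). Ifitm2, the third of the cluster, had changes of 0.03 ± 0.06 (adjusted p = 0.789) and 0.02 ± 0.06 (adjusted p = 0.903). Whether the 3 genes differ from one another in their diet effect was not tested.

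Bst2 (tetherin), which holds budding viruses on the cell surface, read 214 to 335 (median 262) on the normal diet and 160.0 to 290.1 (median 214) on high salt and fat at 2 weeks, which overlapped, and its change was -0.29 ± 0.14 (adjusted p = 0.231). At 8 weeks it read 166 to 364 (median 283) and 411 to 548 (median 438), with no overlap. Bst2 rose by 0.74 ± 0.14 (adjusted p = 0.00127), and the effects at the 2 times differed by 1.03 ± 0.20 (adjusted p = 0.0165), the largest difference among the called members. Ifi27, a mitochondrial protein strongly induced by type I interferon, read 395 to 716 (median 507) and 425 to 576 (median 504) at 2 weeks, with a change of -0.02 ± 0.12 (adjusted p = 0.933). By 8 weeks it read 385 to 519.8 (median 439) and 480.2 to 775 (median 631), which overlapped, and rose by 0.47 ± 0.12 (adjusted p = 0.0166). Its call was lost without high salt and fat array 1 (0.41, adjusted p = 0.0563) or array 5 (0.41, adjusted p = 0.0551) of the 8-week group. The classic antiviral genes were not called. Mx1, a GTPase that traps viral particles, read 38.3 to 153 (median 49.4) and 38.1 to 54.0 (median 44.3) at 2 weeks and 22.6 to 70.9 (median 42.8) and 23.6 to 58.1 (median 45.9) at 8 weeks, with changes of -0.28 ± 0.25 (adjusted p = 0.551) and -0.04 ± 0.25 (adjusted p = 0.948). Oas1a, Rsad2, Usp18 and Ube2l6 had changes of -0.33, 0.12, -0.07 and 0.05 at 2 weeks and -0.07, 0.32, 0.01 and 0.25 at 8 weeks, none called. Gbp2, Ifit3 and Mx2 were below the filter. The medians of Gbp2, a GTPase of the interferon gamma response, were 33.1 and 32.8 at 2 weeks and 31.4 and 46.5 at 8 weeks. Ifit3 read 22.5 to 55.9 (median 40.5) and 25.9 to 44.0 (median 29.1), then 18.4 to 38.1 (median 30.1) and 10.9 to 46.5 (median 38.5).

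Array 4 of the 2-week normal diet was often the highest of its group among the interferon genes and in some class I heavy chains. It had the highest signal of its group for 8 of 10 interferon-induced and 6 of 7 signalling probe sets, where it was the highest for 18.5% of all tested probe sets. The same held for 6 of 14 heavy chain probe sets and 2 of 4 of class I partners. On this array Mx1 read 153 against 38.3 to 53.8 on the 5 other arrays of the group, Irf7 read 302 against 106 to 162, and Usp18, which removes Isg15 from proteins, read 111 against 41.4 to 57.8. Irf9 read 101 against 56.6 to 70.0, and Mx2, below the filter, read 109 against 21.1 to 42.9 on its brighter probe set. Among heavy chains RT1-T24-3 read 409 against 174.5 to 230.3, and a probe set of RT1-S3 read 335 against 142 to 197.5. Ifitm1 read 235 against 208 to 240.2 and Ifitm2 992 against 1044 to 1151, so these did not share the pattern. Without this array the members called were 3 higher and 2 lower for diet at 2 weeks and 3 higher for the interaction. RT1-Da was then not called at 2 weeks (-0.34, adjusted p = 0.0764), nor were B2m (0.40, adjusted p = 0.0814) and Tap2 (0.83, adjusted p = 0.0675) in the interaction.

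**Figure D4:**
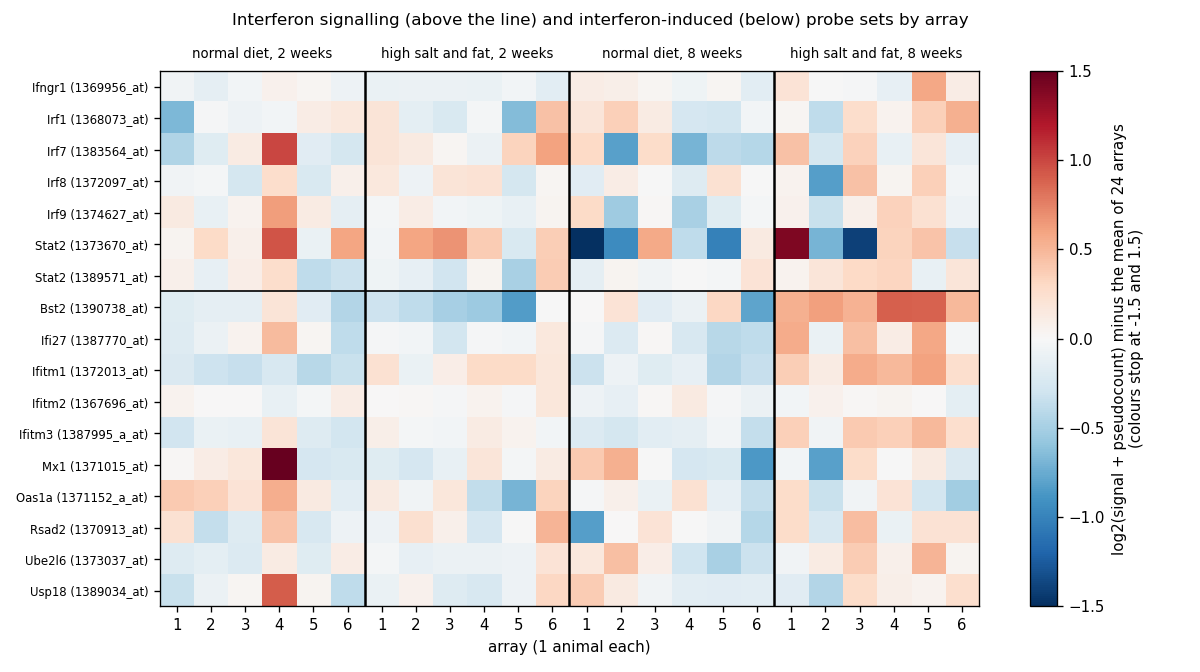
Heat map of the 17 tested probe sets for interferon signalling (above the horizontal line) and interferon-induced genes (below it) on the 24 arrays, as log2(signal + pseudocount) minus the mean of the probe set over all arrays; red is above and blue below that mean, and colours stop at 1.5. Array 4 of the 2-week normal diet is red for Mx1, Irf7 and Usp18, and the 8-week high salt and fat arrays are red for Bst2 and Ifitm1.

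Within the high salt and fat diet, animals at 8 weeks were also set against those at 2 weeks. This comparison shares samples with both diet comparisons, so it is given beside them and not as a further result on its own. It called 10 members higher and 1 lower of 44, 25% of them, where 3.53% of all tested probe sets were called (2.22% higher and 1.3% lower). Among class II 6 of 9 rose (median change of the 9 0.45), among class I partners 3 of 4, among interferon-induced genes 1 of 10, among signalling genes 0 of 7, and among heavy chains 0 of 14 rose and 1 fell. Bst2 rose by 1.08 ± 0.14 (adjusted p = 3.85e-05), RT1-Da by 0.69 ± 0.11 (adjusted p = 0.000431) and RT1-DMa by 0.45 ± 0.10 (adjusted p = 0.0092), each with no overlap between the groups (3 of 44 members, beside 1.15% of all tested probe sets), whose signals are given with the diet comparisons for Bst2 and RT1-Da. RT1-DMa read 84.1 to 129 (median 114) at 2 weeks and 134 to 169 (median 155) at 8 weeks on this diet. RT1-Ba rose on its dimmer probe set by 0.52 ± 0.10 (adjusted p = 0.00354) and on its brighter by 0.45 ± 0.11 (adjusted p = 0.0231). The second call was lost without array 3 at 2 weeks or array 3, 5 or 6 at 8 weeks (0.38 to 0.43, adjusted p 0.0514 to 0.0804). Tap2 rose by 0.67 ± 0.14 (adjusted p = 0.00453). B2m rose on its brighter probe set by 0.34 ± 0.07 (adjusted p = 0.00379), which became 0.22 (adjusted p = 0.0606) with quantile normalization. On its dimmer probe set it rose by 0.24 ± 0.06 (adjusted p = 0.0208), which became 0.20 (adjusted p = 0.105) with arrays centred on their medians, 0.19 (adjusted p = 0.111) with the fat index in the fit and 0.24 (adjusted p = 0.0787) with only the 2 groups in the fit. RT1-Db1 rose by 0.49 ± 0.12 (adjusted p = 0.0194), a call lost without array 4 at 2 weeks (0.41, adjusted p = 0.0578) or array 3 at 8 weeks (0.47, adjusted p = 0.0507). Cd74 rose by 0.25 ± 0.07 (adjusted p = 0.0335), a call lost without any 1 of arrays 1, 3, 4 and 5 at 2 weeks and arrays 1, 2 and 3 at 8 weeks (0.21 to 0.24, adjusted p 0.0593 to 0.0902). The Cd74 change also became 0.13 (adjusted p = 0.249) with quantile normalization and 0.21 (adjusted p = 0.149) with arrays centred on their medians. RT1-CE16 fell by 0.44 ± 0.09 (adjusted p = 0.00609). In the same comparison 8 of 13 tested macrophage and myeloid markers rose and 0 fell, with a median change of 0.50 and 13 of 13 changes above 0. Their part in the class II changes was not tested.

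On the normal diet 0 of 44 members were called between 2 and 8 weeks in limma, where 0.0392% of all tested probe sets were called (0.0294% higher and 0.0098% lower). At an unadjusted p under 0.05 there were 4 of 44, beside 8.51% of all. The groups did not overlap for 1 member that was higher and 1 that was lower, beside 0.333% and 0.353% of all tested probe sets. These were RT1-DMb (0.18 ± 0.07, adjusted p = 0.47) and the dimmer probe set of RT1-Ba (-0.20 ± 0.10, adjusted p = 0.587). The changes of RT1-Da, Tap2, Bst2 and Ifitm1 over that time on the normal diet were -0.20 ± 0.11, -0.20 ± 0.14, 0.06 ± 0.14 and 0.06 ± 0.08.

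Genes of the same pathways outside the members were read from lists of symbols, each gene by its brightest probe set. Beside the counts in these lists and the cell type lists below, 4.55% of all tested probe sets were called higher and 4.19% lower at 2 weeks. At 8 weeks the shares were 5.63% and 3.51%. Of 14 further interferon receptors and signal genes 7 were tested and 0 were called with diet at either time. Of 51 further interferon-induced genes 17 were tested. At 2 weeks 1 of them rose, Psme1, a subunit of the proteasome activator, by 0.22 ± 0.06 (adjusted p = 0.0291), and 0 fell. At 8 weeks 7 of 17 rose and 0 fell. The 4 of smallest p were all of the immunoproteasome and its activator, which cut the peptides shown by class I: Psme1 by 0.48 ± 0.06 (adjusted p = 1.33e-05), Psmb8 by 0.83 ± 0.12 (adjusted p = 4.38e-05), Psme2 by 0.58 ± 0.09 (adjusted p = 5.6e-05) and Psmb10 by 0.64 ± 0.13 (adjusted p = 0.00233). The signal of Psmb8 at 8 weeks was 79.8 to 119 (median 102) on the normal diet and 128 to 206 (median 199) on high salt and fat, without overlap, and at 2 weeks it was 90.8 to 147 (median 110.2) and 104 to 148 (median 126), which overlapped.

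Of 26 further genes of antigen processing 14 were tested. At 2 weeks 4 fell and 0 rose: the lysosomal proteases Lgmn (-0.40 ± 0.07, adjusted p = 0.000706), Ctsb (-0.43 ± 0.08, adjusted p = 0.00161) and Ctsl (-0.32 ± 0.07, adjusted p = 0.00379), and the T helper co-receptor Cd4, also carried by rat macrophages (-0.40 ± 0.11, adjusted p = 0.016). At 8 weeks 3 rose and 0 fell: Ctss, the protease that trims the invariant chain (0.49 ± 0.10, adjusted p = 0.00236), Ctsl (0.28 ± 0.07, adjusted p = 0.0134) and Pdia3, a chaperone of class I loading (0.28 ± 0.08, adjusted p = 0.0283). Ctsl read 2655 to 3060.0 (median 2727) on the normal diet and 2048 to 2384 (median 2207) on high salt and fat at 2 weeks, without overlap, and 2094 to 2695 (median 2384) and 2479 to 3220.3 (median 2917) at 8 weeks. It fell at 2 weeks and rose at 8 weeks as RT1-Da did, with an interaction of 0.60 ± 0.10 (adjusted p = 0.00609). These lysosomal proteases are also abundant in proximal tubule cells, whose part in these changes was not tested. Of 8 proximal tubule markers 5 fell at 2 weeks and 4 at 8 weeks, and the summed signal of the 8 was 26494 to 29992 on the normal diet and 19402 to 25131 on high salt and fat at 2 weeks, then 22038 to 29606 and 19712 to 24145 at 8 weeks.

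Class II is made chiefly by myeloid and B cells, and markers of blood-derived cells were measured beside the members. Of 16 measured macrophage and myeloid genes 13 were tested. With diet at 2 weeks 0 were called (median change -0.05). At 8 weeks 6 rose and 0 fell (median 0.33): Cd68, C1qa, Lyz2, Laptm5, Coro1a and Lcp1. Cd68 rose by 0.90 ± 0.14 (adjusted p = 0.000106) and C1qa, the first chain of complement C1q, by 0.57 ± 0.09 (adjusted p = 7.03e-05). The interaction was called above 0 for 3 of the 13, Cd68, C1qa and Lyz2. The summed signal of the 16 genes was 3586 to 4073 on the normal diet and 3259 to 3851 on high salt and fat at 2 weeks, which overlapped. After 8 weeks it was 3214 to 3903 on the normal diet and 3920 to 5233 on high salt and fat, so the groups did not overlap at 8 weeks. Itgam, Ptprc and Fcgr2b were below the filter. On high salt and fat the range of these sums lay lower at 2 weeks and higher at 8 weeks, as that of RT1-Da did, and their part in the changes of RT1-Da, RT1-Ba and RT1-Db1 was not tested.

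Lymphocyte markers were dim. Of 15 T and NK cell genes 4 were tested, of which Cd4 fell at 2 weeks and 0 were called at 8 weeks. Their summed signal was 438 to 534 and 364 to 513 at 2 weeks and 447 to 585 and 470 to 592 at 8 weeks on the normal and the high salt and fat diet, and Cd8a had group medians of 4.9 to 5.5. The B cell list held 1 measured gene, Cd79b, with group medians of 5.3 to 9.6, and the dendritic cell list 3, with sums of 73.5 to 108 and 55.5 to 98.7 at 2 weeks and 76.6 to 117 and 72.4 to 138 at 8 weeks. Adipocyte genes, a sign of fat tissue taken with the kidney, differed at 2 weeks: 3 of 3 tested fell, with sums of 182 to 1723 on the normal diet and 102 to 200.2 on high salt and fat, and at 8 weeks the sums were 105 to 1400 and 248 to 444 with 0 called. The ratio of 3' to 5' GAPDH control signal, a sign of RNA quality, was 1.09 ± 0.07 and 1.22 ± 0.09 at 2 weeks and 1.16 ± 0.07 and 1.16 ± 0.09 at 8 weeks (mean ± SD of 6 arrays, normal then high salt and fat diet). The fit was also run with a fat index (from Fabp4, Cfd and Car3), this GAPDH ratio or the level of the spiked controls. Then 0 of the 5 interaction calls remained, although the differences stayed between 0.28 and 1.05. Over all tested probe sets, the 35 higher and 4 lower interaction calls became 11 and 2, 4 and 0, and 0 and 0 in that order. With these terms 9, 10 and 8 members were called higher with diet at 8 weeks. The log2 spiked control level averaged 0.165 and -0.134 at 2 weeks and -0.13 and 0.099 at 8 weeks, in the same diet order. At 2 weeks the diets did not overlap (0.083 to 0.235 against -0.433 to 0.068), and at 8 weeks they did. The fat index averaged 0.898 and -0.82, then -0.155 and 0.077, overlapping at both times. The group means of these 2 terms and of the GAPDH ratio varied with diet and time, so their fits cannot isolate the interaction cleanly. The interaction of Bst2, 1.03 ± 0.20 without such a term, was 0.89 ± 0.27 with the spiked controls (adjusted p = 0.307). It was 0.79 ± 0.23 with the fat index (adjusted p = 0.215) and 1.05 ± 0.22 with the GAPDH ratio (adjusted p = 0.0716).

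**Figure D5:**
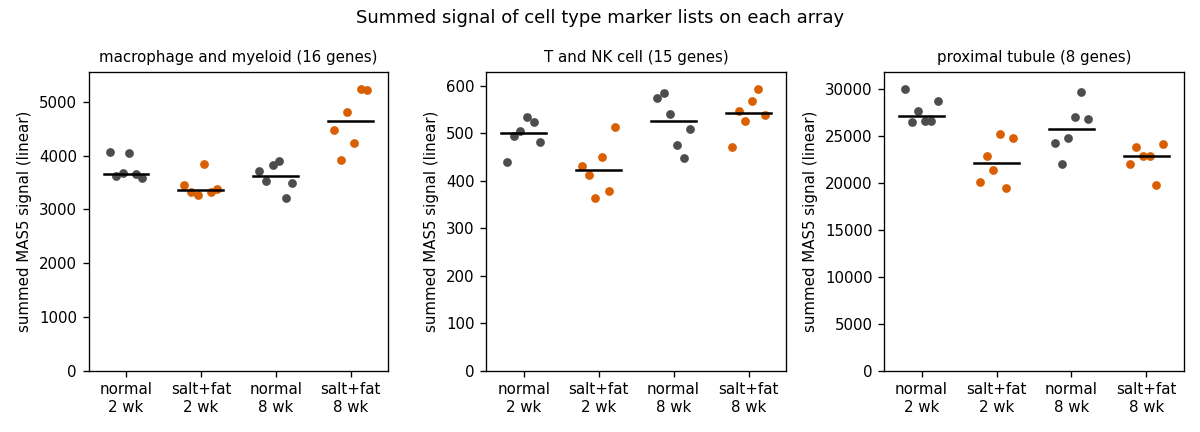
Summed MAS5 signal (linear, axes from 0) of 3 lists of cell type markers on each of the 24 arrays, with 6 arrays per group; grey points are normal diet, orange points are high salt and fat, and black lines are group medians. The macrophage and myeloid sum reaches 3920 to 5233 on high salt and fat at 8 weeks, above the 3214 to 3903 of the normal diet, while the proximal tubule sum is lower on high salt and fat at 2 weeks.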

How the data were processed

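RNA of whole pulverised kidney was hybridised to an Affymetrix rat expression array, 1 array per animal and 24 in all. The deposited values are intensity signals on a linear scale, made by the authors with MAS5 per the submitters' processing notes. The MAS5 version, scanner, scaling target and detection calls are not given in the sources used here. The trimmed mean of each array (2% cut at each end) was 150.034 to 150.042, so arrays had been scaled before deposit. The highest share of identical values between arrays of the same group was 0.691%, so no array was repeated within a group. Arrays of different groups were not compared in this way.

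Probe sets were named from the platform annotation (12783 with 1 symbol, 312 with several, 2771 with none and 57 array controls). Of the symbols, 0 were changed by matching Entrez IDs to RefSeq's GRCr8 tables. Signals became log2(signal + 7.2), the pseudocount being 0.1 of the median array median, and 10208 probe sets passed the filter. limma 3.58.1 in R 4.3.3 fitted 4 group means over 24 arrays with an intensity trend. P-values were adjusted over the 10208 by Benjamini-Hochberg, and a probe set was called at an adjusted p under 0.05. Members with any diet or interaction call are given in full, the others by range, with some named in any case. Replicate numbers were not treated as pairs in the main fit. Correlations of same-numbered arrays, after group means were removed, were -0.147 to 0.162. Between the high salt and fat groups at 2 and 8 weeks, 3 of these pairs exceeded 0.1. Such values cannot show that the numbers carry no shared processing. The members and lists were chosen with earlier results of these data known. Alternatives were other pseudocounts, normalizations, filters, variance models, weights, covariates and omitted arrays.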

Additional observations from a re-analysis of the deposited data

Results flagged for a closer look

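An array stood apart from the other 5 of its group in 24 of the 248 combinations of a member probe set and a group, and chance gives about 1 such case in 20. In the 2-week normal diet array 4 had the highest signal in 10 of them, for Mx1 (153.3), both probe sets of Mx2 (109.1 and 64.4), Irf7 (301.7), Irf9 (100.8), Usp18 (111.3), Ifitm3 (712.5), RT1-T24-3 (408.7), a probe set of RT1-S3 (334.9) and a dim probe set of RT1-A3 (24.5). In that group array 1 had the lowest signal of Irf1 (60.8) and Ciita (59.3) and the highest of another probe set of RT1-S3 (141.2), and array 6 had the lowest of RT1-CE12 (550.5).

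In the 2-week high salt and fat group array 6 had the highest signal of Ifitm2 (1205.0), Ube2l6 (72.1) and the dimmer probe set of Mx2 (41.4), and array 1 the highest of RT1-DMb (337.0). In the 8-week high salt and fat group array 2 had the lowest signal of Ifit3 (10.9) and of a probe set of RT1-S3 (81.8), and array 6 the highest of RT1-CE16 (280.8). In the 8-week normal diet the cases were dim probe sets, each at its highest: RT1-CE5 (18.3) on array 4, RT1-Db1 (14.8) on array 2 and a probe set of RT1-M6-1 and RT1-M4 (40) on array 1.

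The diet effect differed between 8 and 2 weeks, by the limma interaction over 24 arrays, for Bst2 (1.03), RT1-Da (0.89) and Tap2 (0.87). It also differed for 1 of 2 probe sets each of RT1-Ba (0.71) and B2m (0.42). With a term for fat, for the GAPDH ratio or for the spiked controls in the fit, 0 of these 5 were called. Over all tested probe sets, the 35 higher and 4 lower interaction calls then became 11 and 2, 4 and 0, and 0 and 0.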

How the results depend on the processing

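For diet at 2 weeks, 3 members called higher became 1 when the fit held the level of the spiked controls. The 3 called lower became 1 with quantile normalization, 1 with the fat index in the fit, 0 with the GAPDH ratio and 1 with the spiked controls. The 5 interaction calls became 3 with no filter and 0 with any of these 3 covariates. Over all probe sets, the 35 higher and 4 lower interaction calls became 27 and 4 with no filter. They became 11 and 2 with the fat index, 4 and 0 with the GAPDH ratio and 0 and 0 with the spiked controls. Between the times on high salt and fat, the 1 member called lower became 0 with the spiked controls. The causes were not tested.

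Leaving out 1 array at a time gave 3 higher and 2 to 3 lower for diet at 2 weeks, 7 to 11 higher and 0 lower for diet at 8 weeks, 3 to 5 higher and 0 lower for the interaction, and 7 to 11 higher and 1 lower between the times on high salt and fat. On the normal diet over time it gave 0 in each direction.

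With the replicate number as a block, calls numbered 3 higher and 2 lower for diet at 2 weeks, 10 and 0 for diet at 8 weeks, 4 and 0 for the interaction, and 11 and 1 between the times on high salt and fat. The block ended the calls of RT1-Da at 2 weeks (adjusted p = 0.0673) and B2m in the interaction (adjusted p = 0.057) and added RT1-T24-4 at 8 weeks (adjusted p = 0.0397).

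Of the 31 member calls over the 5 comparisons 0 changed sign under the other settings. All 31 were kept with pseudocounts of 1 and 50, robust eBayes and array weights. The spiked controls lost 12, the fat index 10, the GAPDH ratio 9, quantile normalization and no filter 5 each, centring on array medians 4, and eBayes without trend and leaving out normal-diet arrays 1 and 2 at 8 weeks together 3 each. With only the groups compared 3 of 26 were lost, and of 27 that passed the stricter filter 0 were. Over all probe sets, the 464 higher and 428 lower calls for diet at 2 weeks became 123 and 110 with the fat index, 173 and 141 with the GAPDH ratio and 235 and 247 with the spiked controls. For diet at 8 weeks 575 and 358 became 302 and 195 with the spiked controls and 333 and 209 without normal-diet arrays 1 and 2. Dim signals limit Tap1, Mx2, Gbp2 and Ifit3, which were not tested.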

Other observations

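Array 6 of the 2-week high salt and fat group had the highest signal of its group for 7 of 10 interferon-induced probe sets, where it was the highest for 25.2% of all tested probe sets. Array 2 of the 8-week high salt and fat group had the lowest signal of its group for 6 of 9 class II probe sets, 6 of 10 interferon-induced and 3 of 4 class I partners, where it was the lowest for 19.8% of all tested probe sets.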
